A study of Mus musculus with 102 samples.

Results

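A total of 253225 CpGs were intermediate in wild-type mouse embryonic stem cells and strongly raised in cells without TET proteins. They were chosen from the capture bisulfite sequencing table as the CpGs with a methylation level above 10% and under 50% in wild type and a level at least 30 percentage points higher in TET-deficient cells at day 0. They made up 11.6% of the 2177608 CpGs measured, 51.0% of the 496597 CpGs that were intermediate in wild type, and 71.2% of the 355566 CpGs that rose by at least 30 points from any level. They are called raised intermediate CpGs, or members, in what follows, and the 243372 CpGs that were intermediate in wild type but rose by less or fell are called the other intermediate CpGs. A methylation level is the percentage of bisulfite reads on a CpG that kept a cytosine.

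The series holds 102 samples of C57BL6/J mouse embryonic stem cells, 24 measured by capture (SureSelect) and 78 by amplicon bisulfite sequencing, with 3 replicates in each group. Wild-type cells are a line with active TET enzymes whose Dnmt3a and Dnmt3b alleles are both flanked by loxP sites, so these floxed alleles are shared by every group used here. TTKO cells are a single CRISPR clone of that line with Tet1, Tet2 and Tet3 disrupted, so what belongs to the loss of TET cannot be told apart from what belongs to the clone. Cre cells received Cre recombinase protein, which removes the catalytic exons from most but not all alleles of Dnmt3a and Dnmt3b, and mock cells received the buffer alone. TTKO cells were captured before transduction (day 0) and on days 4, 8, 10, 13, 17 and 29 after Cre, while wild-type cells were captured only at day 0. Amplicons covered both lines at day 0 and with Cre or mock treatment at each later day. The labels call the samples replicates and the study's methods call them biological replicates, without saying at which step they were separated, so p-values measure only the spread between these samples.

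CpG methylation is written by the de novo enzymes DNMT3A and DNMT3B and copied after replication mainly by DNMT1. TET enzymes oxidise methylated cytosine, which opens a route back to the unmethylated base. Intermediate methylation in embryonic stem cells is typical of distal regulatory elements bound by transcription factors. Once DNMT3A and DNMT3B are deleted, the level of a CpG falls as far as copying fails to keep up with cell division, so that the loss in TTKO cells is a measure of passive demethylation.

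The sequences below are from regions whose courses differ most or are described in detail, chosen by their values, all on the forward strand of mouse build mm9, with the raised intermediate CpGs in capitals. The first is from the coding exon of Ston2, which encodes an endocytic adaptor and held the cluster with the most raised intermediate CpGs.
Ston2, chr12:92885854-92886153: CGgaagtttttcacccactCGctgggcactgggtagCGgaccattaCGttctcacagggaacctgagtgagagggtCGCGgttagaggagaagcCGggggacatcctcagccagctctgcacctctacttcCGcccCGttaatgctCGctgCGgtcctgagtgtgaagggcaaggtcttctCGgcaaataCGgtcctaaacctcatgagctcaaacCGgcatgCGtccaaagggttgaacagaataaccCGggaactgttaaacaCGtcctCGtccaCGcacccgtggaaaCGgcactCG
Windows from a cluster in an intron of Rtkn2 and from a cluster 1090 bases from Arl9 are shown because the former kept little of its methylation to day 29 and the latter nearly all of it.
Rtkn2, chr10:67471870-67472169: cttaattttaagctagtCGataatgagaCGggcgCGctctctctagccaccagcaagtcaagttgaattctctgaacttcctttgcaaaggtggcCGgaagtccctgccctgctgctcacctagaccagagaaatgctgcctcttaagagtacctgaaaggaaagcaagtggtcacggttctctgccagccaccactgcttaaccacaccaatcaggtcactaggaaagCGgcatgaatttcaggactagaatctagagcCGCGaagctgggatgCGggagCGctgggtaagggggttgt
Arl9, chr5:77431784-77432083: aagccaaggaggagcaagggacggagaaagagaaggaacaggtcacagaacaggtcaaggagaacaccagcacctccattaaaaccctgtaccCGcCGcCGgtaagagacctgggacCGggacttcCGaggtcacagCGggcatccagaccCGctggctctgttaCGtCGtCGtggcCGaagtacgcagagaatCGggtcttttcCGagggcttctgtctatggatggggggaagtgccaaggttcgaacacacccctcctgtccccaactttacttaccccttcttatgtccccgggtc
A cluster on chromosome 16, 262167 bases from the nearest annotated protein-coding gene, is shown because its mean level at day 29 was above that at day 4.
Chromosome 16 cluster, chr16:50994992-50995291: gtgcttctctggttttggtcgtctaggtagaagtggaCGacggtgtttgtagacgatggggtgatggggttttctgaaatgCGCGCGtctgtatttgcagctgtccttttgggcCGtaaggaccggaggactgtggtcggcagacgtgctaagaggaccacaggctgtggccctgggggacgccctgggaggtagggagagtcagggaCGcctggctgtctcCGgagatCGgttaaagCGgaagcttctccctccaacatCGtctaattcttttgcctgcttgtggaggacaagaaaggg
A window from Spred2, which encodes an inhibitor of Ras signalling, is shown for its drop between day 0 and day 4.
Spred2, chr11:19920895-19921194: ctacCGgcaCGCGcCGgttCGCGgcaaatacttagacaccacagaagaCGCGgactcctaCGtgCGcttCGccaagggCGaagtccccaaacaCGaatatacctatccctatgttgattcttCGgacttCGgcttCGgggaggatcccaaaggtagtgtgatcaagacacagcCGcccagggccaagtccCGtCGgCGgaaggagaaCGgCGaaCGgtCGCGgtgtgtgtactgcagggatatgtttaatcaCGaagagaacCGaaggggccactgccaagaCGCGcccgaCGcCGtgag
Amplicons LMR16, in an intron of Cradd, and Constitutive LMR-REST75, 17870 bases or more from the nearest protein-coding gene, are shown because they give each replicate of the comparison.
LMR16, chr10:94717122-94717240: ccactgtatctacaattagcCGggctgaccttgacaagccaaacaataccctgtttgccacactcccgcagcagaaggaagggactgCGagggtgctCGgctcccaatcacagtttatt
REST75, chr5:150291045-150291287: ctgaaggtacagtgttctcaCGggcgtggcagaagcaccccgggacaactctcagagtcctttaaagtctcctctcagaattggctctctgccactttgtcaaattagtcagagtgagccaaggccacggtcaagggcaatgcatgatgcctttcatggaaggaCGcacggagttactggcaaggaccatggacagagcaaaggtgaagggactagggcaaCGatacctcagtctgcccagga
The last windows hold, in their middle, the raised intermediate CpGs with the lowest fitted demethylation rates (Agap1, Iqgap2, Adh7) and with the highest (Tcp11, Oscp1, Sox13), both among precise fits as defined with the rates.
Agap1, chr1:91635672-91635693: ccacattgtaCGgcagccaaac
Iqgap2, chr13:96612704-96612725: tccaaccttcCGctagcctggc
Adh7, chr3:137889092-137889113: gtctgtgctcCGgacactgaga
Tcp11, chr17:28221453-28221474: aggccaaggcCGtcaggtcgac
Oscp1, chr4:125763312-125763333: cccagatccaCGtaagaaggta
Sox13, chr1:135278733-135278754: cctaggtctcCGtccggtcaaa

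Each capture column joins the reads of its 3 replicates and holds at least 50 reads per CpG. The raised intermediate CpGs had a median coverage from 175 reads at day 8 to 294 reads at day 17. Because the replicates are joined, only the counting error of capture levels can be estimated, and their spread between replicates cannot. Day 0 of TTKO cells and wild type chose the CpGs, so their values are given as a description. The CpGs had a median rise of 42.8 points, with quartiles of 36.3 and 51.2 points and a largest rise of 84.1 points. At the edge of the rule, the 9536 CpGs that rose by 30 to 31 points had a mean day 29 level of 27.5%, and the 9446 intermediate CpGs that rose by 29 to 30 points had 26.5%. At the lower edge in wild type, the mean day 29 level was 25.4% for the 9280 CpGs at 10 to 11% and 24.7% for the 9540 CpGs at 9 to 10%. At the upper edge it was 55.2% for the 2947 CpGs at 49 to 50% and 56.3% for the 2990 CpGs at 50 to 51%. The rule therefore cuts a continuous range at each of its edges.

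Methylation of the raised intermediate CpGs fell at every step after Cre and at day 29 still stood above its wild-type mean. The mean level was 71.7% on day 0, then 68.6% (day 4), 62.9% (day 8), 58.5% (day 10), 54.7% (day 13), 46.9% (day 17) and 37.1% (day 29), against 27.2% in wild type. Expressed as a percent of the current level lost per day, the loss was smallest between day 0 and day 4. It was 1.94% per day between day 17 and day 29, and was largest between day 13 and day 17, at 3.77% per day. The mean at day 29 was 54.0% of that at day 4. The other intermediate CpGs kept 33.4% of their day 4 level, CpGs at or under 10% in wild type that were also raised kept 43.2%, and CpGs at or over 50% in wild type kept 66.98%. The raised intermediate CpGs therefore lay between the other intermediate CpGs and the highly methylated ones, as the plot of mean levels by day shows.

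**Figure D1:**
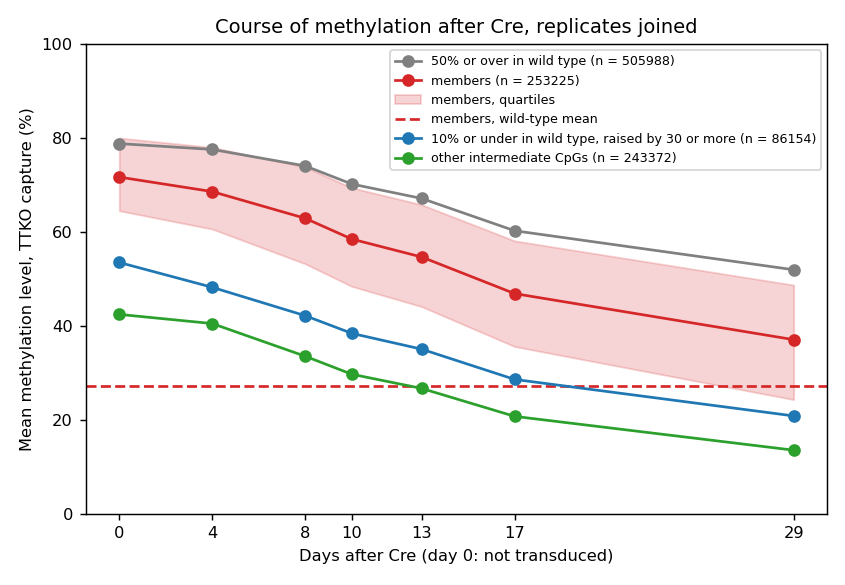
Mean capture methylation level (%) in TTKO cells against days after Cre for the raised intermediate CpGs (members, with their quartiles shaded) and 3 comparison classes, replicates joined; the dashed line is the members' wild-type mean. The members fell from 71.7% at day 0 to 37.1% at day 29 and stayed above the line at 27.2%.

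Single CpGs spread widely around this course. The median CpG kept 52.1% of its day 4 level at day 29, with quartiles of 39.6% and 64.5% and 5th and 95th percentiles of 23.4% and 80.8%. By day 29, 68775 of the CpGs (27.2%) had fallen under their own wild-type level, against 0.174% at day 10, 0.674% at day 13 and 4.94% at day 17. A total of 7773 CpGs (3.07%) were under 10% at day 29, while 24827 (9.80%) were still at 60% or over. Most of the CpGs thus remained above the level they had with TET proteins present.

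Day 29 was tested against day 4, neither of which entered the rule, with Fisher's exact test on the joined reads and Benjamini-Hochberg adjustment over all CpGs measured. This test compares the joined libraries and takes no account of variation between replicates. Of the 253225 raised intermediate CpGs, 246673 (97.4%) were lower at day 29, 7 were higher and 6545 were not called. Among all CpGs 57.1% were lower and 0.112% were higher. Among the 935679 CpGs at 40% or over at day 4, where a fall can be seen, 93.9% were lower, and 97.5% of the raised intermediate CpGs in that range were. The share in the other intermediate CpGs was 95.3% overall and 98.6% in that range. The share called was therefore close to that of other CpGs at similar starting levels. The median difference of the raised intermediate CpGs was -32.1 points.

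The share left at day 29 moved with the starting level. Among the raised intermediate CpGs it was 35.6% for those at 40 to 50% at day 4, then 39.5% (50 to 60%), 46.8% (60 to 70%), 57.2% (70 to 80%), 68.1% (80 to 90%) and 76.5% (over 90%). The other intermediate CpGs kept less in each class they shared, at 28.2%, 33.5%, 42.5%, 52.0% and 59.2%. At 60 to 70%, raised CpGs that were at or under 10% in wild type kept 48.3% and CpGs at or over 50% in wild type kept 48.5%. At 80 to 90% the last of these kept 75.2%. Within a class of day 4 levels the groups thus stood closer than over all levels, but not together at the highest levels. By wild-type level the share left was 47.1% for CpGs at 10 to 20% in wild type and 51.8%, 57.1% and 63.9% in the following steps of 10 points. The rule sets a higher day 0 level for a higher wild-type level, and the mean day 4 levels of these steps were 60.4%, 68.0%, 73.6% and 78.8%, so the wild-type level and the starting level were not separated here.

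A rate of de novo methylation and a rate of passive demethylation were fitted to each CpG's course. The model and grid follow the methods of the study, but the fit was made once to the joined reads, whereas the study fitted each replicate and took medians. A fit was counted as precise when both 95% credible ranges were under 2 on the log2 scale and a share under 0.08 of its probability lay on any edge of the grid of rates. This held for 226247 of the raised intermediate CpGs (89.3%). This share was 31.3% for ranges under 1, and 57.8% when a spread between replicates was added to the counting error. That spread had been estimated on amplicons and not on capture. Over the precise fits the median log2 rate of passive demethylation was -4.91 (0.0332 per day) and that of de novo methylation was -3.54 (0.0861 per day). In the other intermediate CpGs the medians were -3.95 and -4.09. Within a class of day 0 level the demethylation medians of members and of other intermediate CpGs were -4.09 and -3.81 at 40 to 50%, -4.23 in both at 50 to 60%, -4.64 in both at 60 to 70% and -5.05 in both at 70 to 80%. The fit reads day 0, so these rates are not independent of the rule.

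At the slow end of the precise fits, the CpG in an intron of Agap1, which encodes a regulator of Arf GTPases, was at 88.5% at day 4 (558 reads, exact 95% binomial interval 85.6 to 91.1%) and at 85.6% at day 29 (599 reads, 82.6 to 88.4%). Its difference was not called (Fisher's exact test with Benjamini-Hochberg adjustment, adjusted p = 0.251). The CpG in an intron of Iqgap2, a scaffold protein gene, went from 89.1% (690 reads, 86.6 to 91.4%) to 84.5% (787 reads, 81.8 to 87.0%). The CpG in an intron of the alcohol dehydrogenase gene Adh7 went from 90.1% (573 reads, 87.3 to 92.4%) to 86.6% (619 reads, 83.7 to 89.2%). The Adh7 difference was not called and the Iqgap2 difference was (adjusted p = 0.119 and 0.0168, Fisher's exact test). All of these CpGs were nearly flat through 29 days without the de novo enzymes. At their fast end, the CpG 3879 bases from Tcp11, a gene of sperm function, was at 51.7% at day 0, 26.1% on day 4 (353 reads, 21.6 to 30.97%), 10.8% on day 8 and 0.5% on day 29 (418 reads, 0.058 to 1.72%). The CpG in an intron of Oscp1 fell from 27.7% at day 4 (220 reads, 21.9 to 34.1%) to 2.7% at day 29 (226 reads, 0.98 to 5.69%). The CpG 136 bases from Sox13, which encodes a SOX family transcription factor, fell from 31% (168 reads, 24.1 to 38.5%) to 1.8% (219 reads, 0.50 to 4.61%). The fast CpGs thus ended under their wild-type levels of 13.2%, 15.6% and 16.6%. These intervals cover counting error only, since the replicates are joined.

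The 7 CpGs called higher at day 29 than at day 4 are named after their values were seen. Most of these calls depended on the early day, since 1 member was called higher with day 0 in place of day 4, and 5 were called with a difference of at least 10 points required. They lay in promoters of the LIM homeobox gene Lhx9, of D1Pas1, of Tdrkh and of Gm10110, 11296 bases from Errfi1, and at 2 positions of the chromosome 16 cluster. The Tdrkh CpG, near a gene of the piRNA pathway of the germline, was at 54.6% at day 0, 31.9% at day 4 (232 reads, 25.9 to 38.3%) and 52.0% at day 29 (269 reads, 45.9 to 58.1%). The Lhx9 CpG was at 81.7%, 52.4% (231 reads, 45.7 to 59.0%) and 63.9% (230 reads, 57.3 to 70.1%) on the same days. The D1Pas1 CpG was at 61.2%, 60.3% (317 reads, 54.6 to 65.7%) and 69.3% (326 reads, 64.0 to 74.3%). At Tdrkh each level from day 8 on was above that of day 4. At Lhx9 the level moved up and down between days, with 68.6% at day 8 and 51.1% at day 17. At D1Pas1 the levels from day 0 to day 17 lay between 59.2% and 65.6%.

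Raised intermediate CpGs lay close together. With neighbours joined at gaps of up to 200 bases, they formed 90158 clusters, and 83.9% of them had another within that distance. For the other intermediate CpGs the share was 69.9%, and for CpGs at or over 50% in wild type, which are more numerous, it was 89.1%. Single CpGs made 40782 of the clusters, holding 16.1% of the members, while 34404 clusters had 2 to 4 members, 11495 had 5 to 9 and 3477 had 10 or more. The 3477 large clusters held 48296 members (19.1%) with a median span of 462 bases. Clusters of 2 or more spanned a median of 127 bases, and the longest 2126 bases. Clusters of 5 or more members held 47.8% of the raised intermediate CpGs.

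The make-up of the surroundings changed over a short distance. Of measured CpGs 1 to 10 bases from a raised intermediate CpG, 65.9% were raised intermediate themselves, and this share was 54.0% at 26 to 50 bases, 41.1% at 101 to 200 bases, 28.9% at 201 to 500 bases, 16.3% at 501 to 1000 bases and 12.4% at 1001 to 2000 bases. The last value is near the 11.6% of all CpGs measured. Over the same distances the share of CpGs at or under 10% in wild type went from 11.1% to 64.0%, and the mean TTKO day 0 level of the neighbours went from 69.6% to 30.2%. A CpG on at least 1 side was also a member for 71.8% of the CpGs, and CpGs on both sides were for 29.2%. The courses of close members were also alike: across pairs of neighbouring members, the share left at day 29 correlated with r = 0.65 over 34806 pairs 1 to 10 bases apart, r = 0.40 over 75650 pairs 26 to 50 bases apart and r = 0.24 over 139745 pairs 501 to 1000 bases apart. Pairs within a read share molecules and all pairs share libraries, so these correlations are descriptions and the pairs are not independent.

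**Figure D2:**
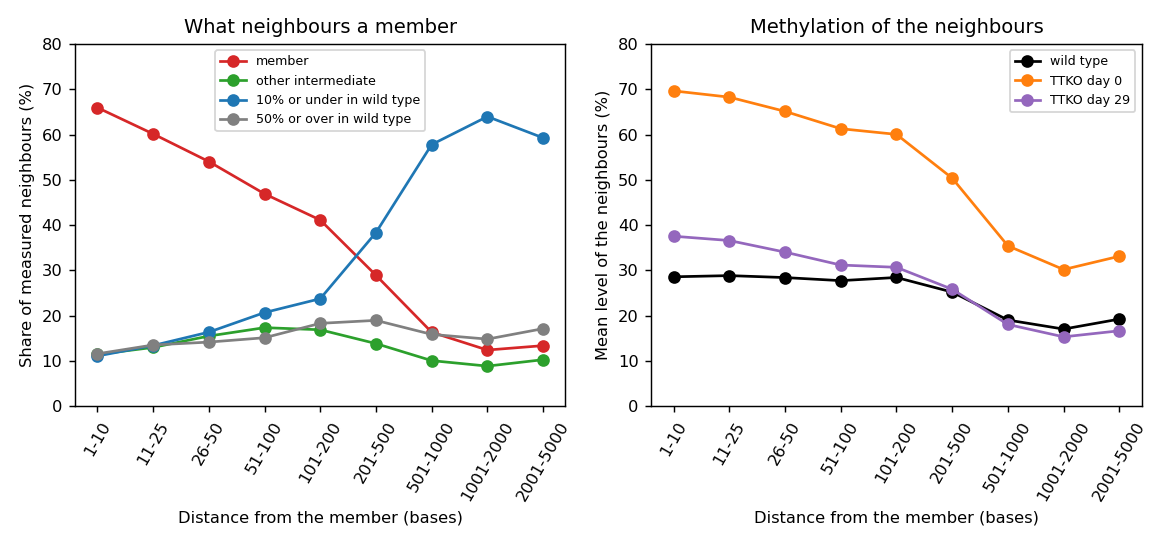
Left, the share (%) of measured CpGs at each distance (bases, in steps of unequal width) from a raised intermediate CpG that belong to each class; right, the mean methylation level (%) of those CpGs in wild type and in TTKO cells at days 0 and 29. Raised intermediate CpGs make up 65.9% of the nearest neighbours and 12.4% of those at 1001 to 2000 bases.

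Their spacing was closer than that of the other intermediate CpGs. The nearest CpG in the genome lay a median of 17 bases away, against 26 bases for the other intermediate CpGs, 22 bases for CpGs at or over 50% in wild type and 12 bases for all CpGs measured, many of which are in CpG islands. The nearest CpG was within 10 bases for 33.1% of the raised and 25.5% of the other intermediate CpGs. In the 201 bases around the CpG, the medians were 4 other CpGs against 3, and 52.2% against 49.3% GC. Raised CpGs at or under 10% in wild type were spaced closer still, with medians of 15 bases, 5 other CpGs and 54.2% GC. The share of intermediate CpGs that belonged to the raised class was 34.2% with no other CpG in this window, 43.7% with 1 to 2, 52.7% with 3 to 4, 60.6% with 5 to 7 and 62.5% with 8 to 11, and it was 46.0% with 12 or more. The raised class was thus most frequent at middle CpG densities and less so in island-like sequence. The share of the day 4 level left at day 29 went from 51.6% with no other CpG to 58.8% with 12 or more.

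The place in the genome differed too. Promoters, taken as 1000 bases to each side of a transcript start, held 37.9% of all CpGs measured and 12.2% of the raised intermediate ones. Coding exons held 6.35% and 10.4%, introns 25.1% and 37.9%, and intergenic sequence 28.3% and 35.8%. Among intermediate CpGs alone, the raised class made up 45.1% in promoters, 49.2% in intergenic sequence, 52.2% in introns and 60.7% in coding exons. On the X chromosome it made up 36.9% of the intermediate CpGs, against 48.3% to 53.6% on the autosomes.

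Bases next to the CpG went with membership. With both strands joined, 68.7% of intermediate CpGs in CCGG were in the raised class, 62.2% in ACGG, 54.4% in CCGA, 48.2% in ACGT and 33.4% in TCGA. The shares left at day 29 were 58.8% in CCGG and 50.8% in ACGT, and within the day 4 class of 60 to 70% they were 49.8% and 43.9%. The gap between these contexts was therefore somewhat smaller at like starting levels. The motif AAGGTCA, a binding element of the nuclear receptor ESRRB that helps to maintain pluripotency, stood on either strand within 100 bases of 8.17% of the raised intermediate CpGs, 4.73% of the other intermediate CpGs and 4.22% of all CpGs measured. The KLF motif CCACACCC was near 2.96%, 1.86% and 2.15%, and the octamer ATGCAAAT near 0.990%, 0.823% and 0.811%. The core AGGGGGC of the CTCF motif was near 4.396%, 4.54% and 5.76%, so this motif was not more frequent around the raised class. Of 448 intermediate CpGs that touched the AAGGTCA motif, 38.8% were in the raised class, against 69.9% at 11 to 25 bases from it and 49.2% beyond 500 bases. A motif match is a description of the sequence and not of binding.

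The 8 clusters with the most members lay mainly in coding exons and kept very different shares of their methylation. The largest, at chr12:92885762-92886823 in the coding exon of Ston2, held 57 members among 61 measured CpGs. Its mean was 18.9% in wild type, and in TTKO cells 82.1% (day 0), 77.6% (day 4) and 58.6% (day 29), with single CpGs from 39.5% to 73.9%, which left 75.5% of the day 4 level. The cluster of 53 members in the coding sequence of Spen, a transcriptional repressor that binds Xist RNA, went from 63.4% at day 4 to 21.2% at day 29, so 33.4% was left. The cluster of 52 members in Plec, the gene of the cytoskeletal linker plectin, went from 64.1% to 29.4%, so 45.9% was left. Spred2, with 51 members, had the steepest early drop of the 8, from 64.3% at day 0 to 47.3% at day 4, and then kept 72.0% of that level, at 34.0% on day 29. Between these lay clusters in Snrnp70, a spliceosome component (55 members, 58.0% left), Ywhag, an adaptor protein that binds phosphorylated partners (50 members, 52.0%), and 6330407J23Rik (47 members, 68.9%). The remaining cluster of 48 members in the shared promoter of the histone genes Hist1h2aa and Hist1h2ba kept 72.3%. Clusters of similar size thus differed in course, while the mean share left over all members rose from 51.4% in clusters of 1 to 58.9% in clusters of 20 or more.

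Among the 3477 clusters of 10 or more members, the share left had a median of 55.4% and 5th and 95th percentiles of 38.8% and 74.5%. Those with the lowest shares were in an intron of Rtkn2 (11 members, 54.4% at day 4 and 11.3% at day 29, 20.8% left), in an intron of the ubiquitin ligase gene Rnf125 (10 members, 23.9%), 37868 bases from the kinase gene Sgk1 (11 members, 24.4%) and 2328 bases from Gm806 (12 members, 24.6%). Each of these had a mean of 57.6% to 62.9% at day 0, under the 71.7% of all members, and each ended under its wild-type mean. Those with the highest shares were the chromosome 16 cluster at chr16:50995029-50995253, a cluster 1090 bases from Arl9, a gene of the ARF-like GTPases, and a pair in Lhx9. The chromosome 16 cluster, 262167 bases from 5330426P16Rik, had 10 members with means of 61.6% (day 0), 46.3% (day 4), 41.9% (day 8), 48.7% (day 17) and 54.2% (day 29), or 116.9% of day 4. The Arl9 cluster of 13 members kept 92.4% of its 80.6%, ending at 74.5%, and the Lhx9 clusters of 16 and 23 members kept 92.1% and 92.0%. These extremes were picked from many clusters by the value shown and carry no test. Within a large cluster the day 29 levels had a median standard deviation of 13.2 points over members, against 10.1 points between cluster means, and 188 of these clusters (5.41%) ended under their wild-type mean.

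**Figure D3:**
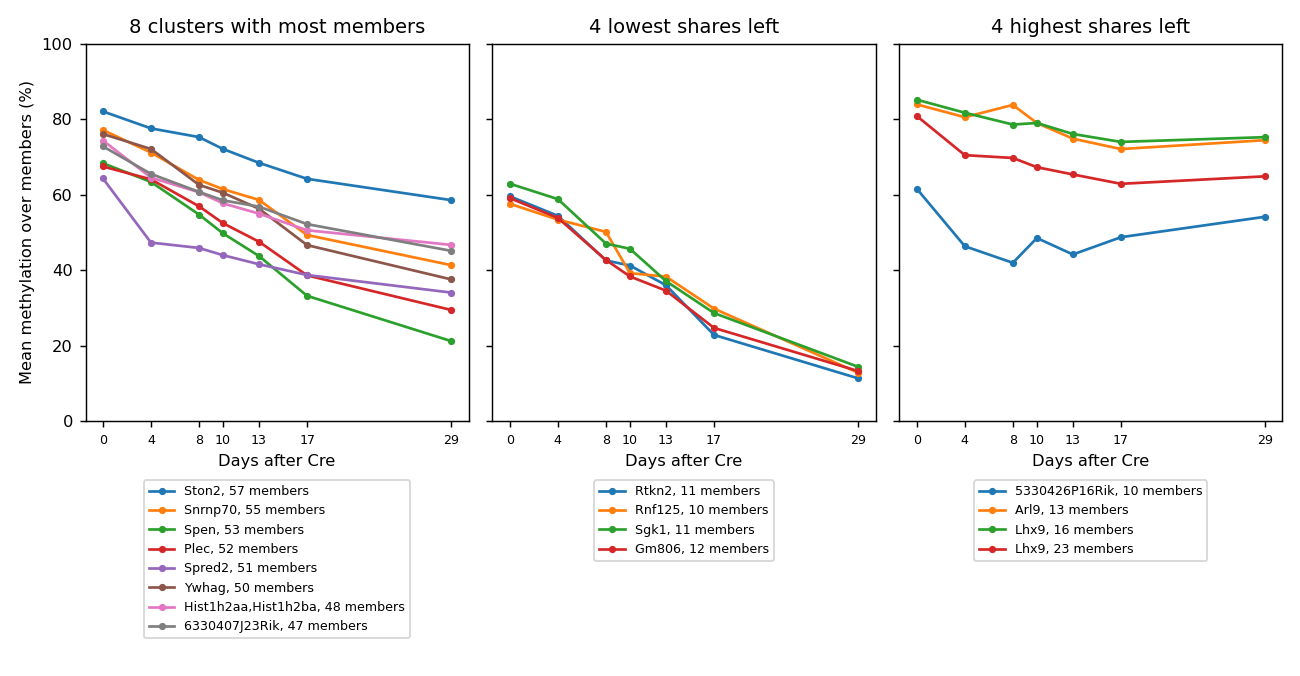
Mean methylation level (%) over the members of single clusters in TTKO capture against days after Cre, replicates joined, for the 8 clusters with most members (left) and, among clusters of at least 10, the 4 with the lowest (middle) and the 4 with the highest (right) day 29 level as a share of day 4; clusters are named by the gene they lie in or nearest to. Ston2 ended at 58.6% and Spen at 21.2%, and the chromosome 16 cluster, labelled by its distant nearest gene 5330426P16Rik, ended above its day 4 level.

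Raised intermediate CpGs were counted within 10000 bases of the genes of 5 lists. Around 23 of the 24 pluripotency genes listed, those found in the annotation, 497 CpGs were members, 9.91% of those measured, with 22 genes having at least 1. The counts were 571 (9.66%) for lineage regulators, 613 (11.6%) for signalling genes, 202 (11.4%) for methylation enzymes and 185 (9.60%) for housekeeping genes, near the 11.6% of all CpGs. As a share of the intermediate CpGs nearby, members made up 67.1% around lineage regulators, 59.98% around signalling genes, 55.8% around pluripotency genes, 54.3% around housekeeping genes and 52.7% around methylation enzymes, beside 51.0% over all. The shares left at day 29 were 47.9% around pluripotency genes, 53.5% around lineage regulators and signalling genes, 46.1% around methylation enzymes and 51.4% around housekeeping genes, beside 54.0% over all members. Within the pluripotency list, Esrrb had the most members, at 106, and kept 53.0%, and Sall4 had 77 and kept 48.7%. The 22 members near Pou5f1, the gene of the core factor OCT4, went from 65.6% at day 4 to 24.1% at day 29, so 36.7% was left. Klf2 with 11 members (36.5%) and Tbx3 with 61 (38.6%) were similar, whereas Nr5a2, a nuclear receptor gene, kept 64.9% over 26 members. Among lineage regulators Tbx5, a cardiac factor, kept 64.8% over 61 members, and Eomes, a factor of the endoderm and mesoderm, kept 37.1% over 28. Among signalling genes, those of the Wnt pathway ranged from 47.0% at Tcf7l1 (76 members), 49.4% at Ctnnb1 (13) and 54.4% at Tcf7 (41) to 64.9% at Lef1 (73) and 65.5% at Axin2 (30), and Smad7, an inhibitor of TGF-beta signalling, kept 38.4% over 60.

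Amplicons covered 22 of the raised intermediate CpGs in 12 regions, with levels for each replicate from libraries that the rule did not use, although the DNA may come from the same cultures. Their classes, as the amplicon list gives them, were low-methylated regions (LMR16, LMR23, LMR24, LMR35 and LMR38), ES-specific LMRs (LMR33 in Zfp704 and LMR34 in Calhm2) and constitutive LMRs at CTCF sites (CTCF48 and CTCF52) or REST sites (REST56, REST61 and REST75). Several members share an amplicon, so they are not independent, with 3 each in LMR16, LMR34 and REST75 and 2 each in CTCF48, LMR23, LMR24 and LMR33. The median coverage per sample was 2556 to 8987 reads.

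The rise without TET was seen in each of them. The mean level was 20.7% in wild type and 74.1% in TTKO cells at day 0, a mean rise of 53.3 points (range 29.2 to 76.0), beside 49.1 points in capture. The wild-type mean lay between 10% and 50% at 21 of the 22, the exception being the LMR24 member with 62.0%, 51.9% and 60.6%. With a quasi-binomial model per CpG, whose dispersion was moderated with limma and whose p-values were adjusted over all CpGs tested, 22 of 22 were higher in TTKO cells, against 59.3% of the 405 CpGs on amplicons. The 3 TTKO and the 3 wild-type replicates did not overlap for any of the 22, but this was not counted over all CpGs on amplicons. In mock cells at day 29, a comparison added after seeing the data, 18 of the 18 that could be tested were again higher in TTKO, against 42.2% of all. The plot of single replicates shows the gap between the lines for each CpG.

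**Figure D4:**
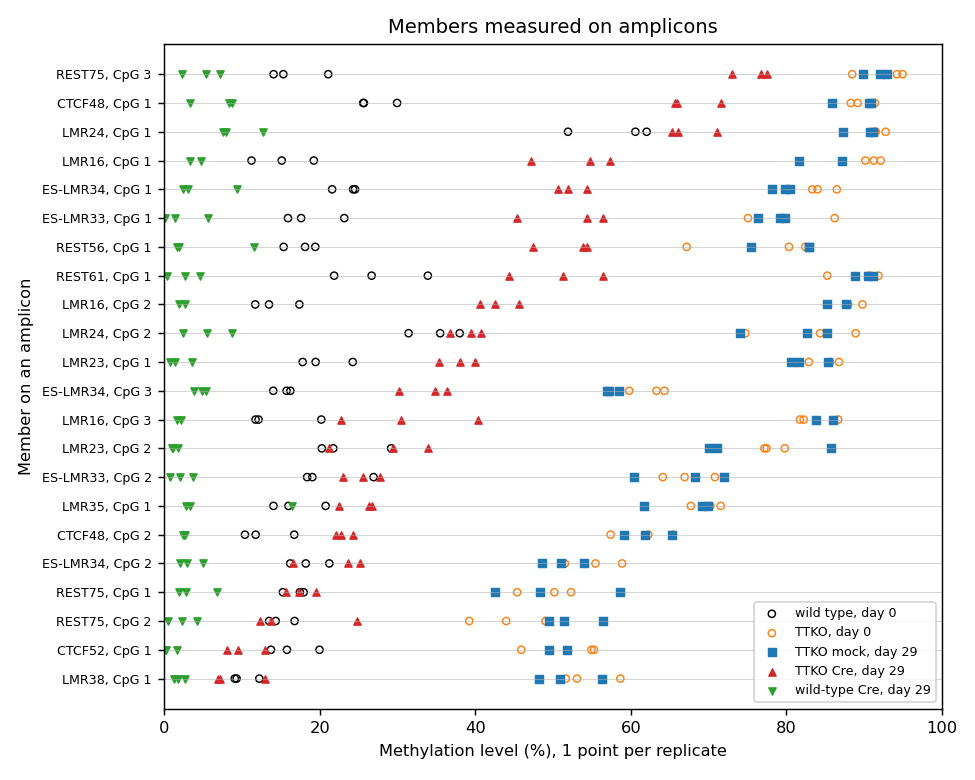
Methylation level (%) of each of the 22 raised intermediate CpGs on amplicons, 1 point per replicate (n = 3, fewer where coverage was under 100 reads), for wild type and TTKO at day 0, TTKO mock and Cre at day 29 and wild-type Cre at day 29; CpGs are named by amplicon and numbered along it. TTKO Cre means range from 9.03% to 75.8% while wild-type Cre means stay between 0.644% and 9.39%.

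Averaged over the 12 members with a level in every sample, TTKO day 0 cells were at 72.7% ± 2.15 (SD, n = 3) and TTKO mock cells stayed between 72.2% and 78.2% through day 29. TTKO Cre cells were at 65.6% ± 1.73 (day 4), 60.4% ± 1.14 (day 8), 59.4% ± 2.09 (day 10), 55.4% ± 2.79 (day 13), 45.6% ± 4.14 (day 17) and 37.2% ± 0.594 (day 29; SD, n = 3 for each). The Cre and mock samples did not overlap at any of these days. With 3 against 3 samples an exact permutation test cannot go below p = 0.1, which each of these comparisons of means gave. Per CpG, 0 of the 20 members tested were called at day 4 by the quasi-binomial model with limma moderation, with 0 called among all CpGs and 2 members at an unadjusted p under 0.05. The number lower with Cre was then 7 of 22 on day 8, when 17.6% of all CpGs were, 14 of 19 on day 10 (43.8%), 15 of 22 on day 13 (33.7%), 17 of 19 on day 17 (54.9%) and 18 of 18 on day 29 (66.7%). The other 4 of the 22 had no level in a mock sample at day 29. They were tested and lower when that replicate was left out, with 22 of 22 called.

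The wild-type line followed another course at the same CpGs. The 12-member mean was 22.6% ± 1.20 at day 0, was higher in mock cells, with 44.1% ± 6.12 on day 4 and 48.0% ± 4.42 on day 8, and was back to 27.8% ± 1.08 by day 13 and 24.5% ± 2.30 by day 29 (SD, n = 3 for each). This transient rise was called at 21 of 22 members between day 0 and mock day 8 (62.5% of all CpGs were higher). TTKO cells showed it at 0 of 22 members (0.504% of all). By the 2-sided quasi-binomial model, 3 TTKO members had an unadjusted p under 0.05, counted in either direction. Both comparisons were added after seeing the course. The mock rise was thus also seen at most other CpGs on amplicons, and its difference between the lines was not tested. Wild-type Cre cells were at 30.8% ± 3.28 (day 4), 22.1% ± 3.04 (day 8), 14.8% ± 4.31 (day 10), 7.80% ± 0.381 (day 13), 7.01% ± 1.31 (day 17) and 4.01% ± 2.01 (day 29; SD, n = 3 for each). Against mock, 0 of 19 members were called lower at day 4 (0 of all; 11 members at an unadjusted p under 0.05), 13 of 17 on day 8 (38.3% of all), 16 of 20 on day 10 (25.2%), 18 of 22 on day 13 (32.4%), 22 of 22 on day 17 (51.4%) and 17 of 19 on day 29 (51.8%). By day 29 the wild-type Cre cells were nearly empty of methylation at these CpGs, whereas TTKO Cre cells still stood above the wild-type day 0 mean at 20 of the 22.

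**Figure D5:**
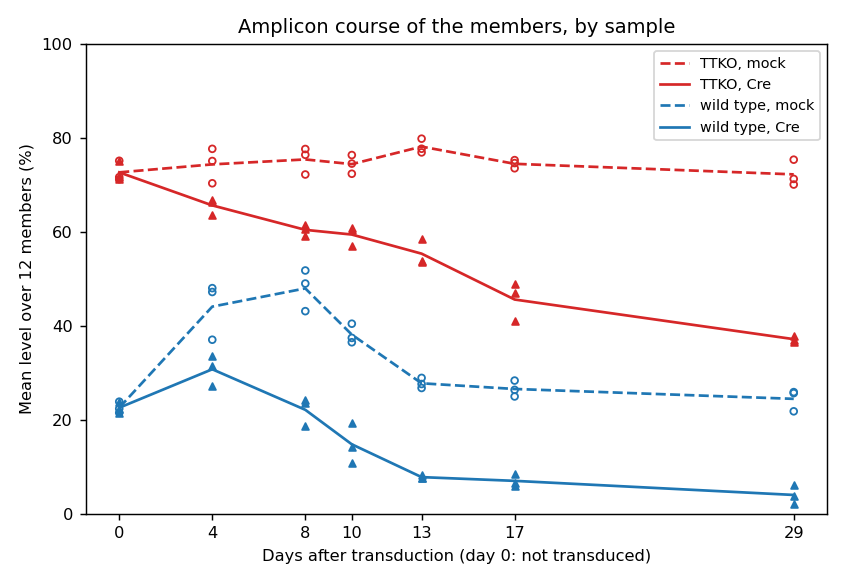
Mean methylation level (%) over the 12 raised intermediate CpGs with a level in every amplicon sample, against days after transduction; points are single samples (3 per group) and lines join group means, dashed for mock and solid for Cre. TTKO mock stays at 72.2 to 78.2%, TTKO Cre falls to 37.2%, and wild-type mock rises to 48.0% at day 8 and returns to 24.5%.

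Single members differed in how much Cre removed by day 29 in TTKO cells. The 3 members of LMR16 and that of CTCF52, which went from a mean of 50.7% in mock to 10.2% with Cre, were not tested at day 29 and are not ranked. Of those tested, the largest change was at the LMR38 CpG, 51213 bases from 4931440P22Rik, where mock replicates were at 48.2%, 50.9% and 56.3% and Cre replicates at 13.0%, 6.91% and 7.21%. Cre over mock, as a log2 odds ratio, was -3.34 (SE 0.29, adjusted p = 5.17e-05 with limma moderation). REST61 followed, with mock replicates at 91.2%, 90.5% and 88.9%, Cre replicates at 44.3%, 51.2% and 56.5%, and a log2 odds ratio of -3.22 (SE 0.32). Among the 18 members tested, the 8 largest changes, which also took in both LMR23 members, a member each of LMR24, LMR33 and CTCF48, and LMR35, ranged from -3.34 to -2.45. The smallest of those tested was at the 3rd CpG of LMR34, in the coding exon of Calhm2, with mock replicates at 57.0%, 58.5% and 57.2%, Cre replicates at 34.8%, 36.3% and 30.2%, and a log2 odds ratio of -1.40 (SE 0.09, adjusted p = 2.02e-05 with limma moderation). The other 3 of the 4 smallest, at LMR33, LMR34 and REST75, ranged from -1.81 to -1.77. The Cre and mock replicates did not overlap at any of the 4, but this was not counted over all CpGs on amplicons.

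Neighbours on 1 amplicon could keep very different levels. In the REST75 sequence printed above, the member at position 150291266 of chromosome 5 was at 77.5%, 73.0% and 76.8% in TTKO Cre cells at day 29, against 89.8%, 92.0% and 93.0% in mock. The member at 150291209, on the same amplicon, was at 24.8%, 12.2% and 13.7% against 49.5%, 56.4% and 51.4%. The member at 150291065 was at 15.7%, 17.3% and 19.6% against 42.6%, 48.3% and 58.6%. All 3 had similar wild-type day 0 means, of 16.8%, 14.9% and 16.9%, but TTKO day 0 means of 92.5%, 44.1% and 49.3%. The LMR16 members, in order along the intron of Cradd, a gene of an adaptor of cell death signalling, were at 53.1% ± 5.31, 42.9% ± 2.52 and 31.2% ± 8.79 in TTKO Cre cells at day 29 (SD, n = 3 each), from TTKO day 0 means of 91.2%, 87.7% and 83.6%. The order of the members on an amplicon at day 29 was thus the order they had at day 0 in LMR16, and the member apart from the others in REST75 was so at both times.

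As a share of mock at day 29, Cre left 17.4% to 82.7% in TTKO cells (median 47.0%) and 3.12% to 53.6% in wild type (median 15.8%), and the share was lower in wild type for 20 of the 22. The difference between the lines was tested on the odds scale with an interaction term. It was called at 2 of the 18 members tested, with a higher ratio in TTKO cells at both, where 3.12% of all CpGs were called higher and 5.99% in either direction. The LMR24 member at position 65259461 of chromosome 3 had an interaction of 1.72 (SE 0.43, adjusted p = 0.0449 with limma moderation), with Cre and mock means of 67.5% ± 3.11 and 89.7% ± 2.13 in TTKO and 9.39% ± 2.82 and 57.7% ± 5.61 in wild type (SD, n = 3). The REST75 member at 150291266 had 1.94 (SE 0.49, adjusted p = 0.0449 with limma moderation), with 75.8% ± 2.41 and 91.6% ± 1.60 in TTKO and 4.94% ± 2.47 and 39.0% ± 4.83 in wild type (SD, n = 3). Neither call was firm, since the members called were 0 to 4 when single replicates were left out. The drop on the odds scale was thus not shown to differ between lines at the other 16.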

How the data were processed

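Enriched DNA was captured with SureSelect baits, bisulfite-converted and sequenced, and chosen regions were sequenced as bisulfite amplicons. Alignment by the authors used Rbowtie, through QuasR, on mm9, and they called methylation with qMeth for capture, for which CpGs under 50 reads were removed and replicates joined. The deposited capture columns hold the coverage, a count of reads per CpG, and the level as a percent of these reads. The deposited amplicon tables hold the coverage count and the level as a fraction, per sample, without a level under 100 reads. The authors' columns of inferred rates, confidence and TET activity are model estimates and were not used. The amplicon columns of all 78 samples and the joined capture columns of 24 samples were used, and no sample column was left out.

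Members, gene lists and motifs were chosen with earlier results of these data known. The regions named are the 8 clusters with most members, the 4 lowest and 4 highest shares left at day 29 among clusters of at least 10 members, the 3 highest and 3 lowest demethylation rates among precise fits, and the amplicon members with the 8 largest and 4 smallest changes. Levels times coverage gave whole methylated reads for 100% of the capture values (tolerance 0.05 percentage points). A replicate model had been planned for capture, but joined columns allow only Fisher's exact test (Python 3.11.15, scipy 1.17.1), Benjamini-Hochberg adjusted over 2177608 CpGs at a threshold of 0.05. Rates were fitted on a grid of 80 rates a step of 1.1 apart, up to 2 per day, with a binomial likelihood and 8% of the day 0 level mixed in for incomplete excision. Amplicon reads were tested CpG by CpG in a quasi-binomial regression with 0.5 added to each count (R 4.3.3, limma 3.58.1), two-sided, on CpGs with a level in every sample compared. Fisher's exact test, the rate fit and the quasi-binomial model of TTKO Cre against mock at day 29 were tested on simulated data with known answers. The interaction term, the replicate block and limma on log2 odds were not. Deviations of same-numbered replicates from their group means, as log2 odds, correlated between -0.0967 and 0.0697 over CpGs. The replicate numbers were therefore not taken to pair the samples. Genes and sequences came from the mm9 (NCBIM37) genome and its GENCODE annotation, on which all 2177608 positions are CG. Alternatives were other thresholds, gaps, coverage minimums, likelihoods, limma on log2 odds, the replicate block and each replicate left out.

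Amplicon samples held 1892557 to 4706462 reads over CpGs. Deep coverage makes counting error small there, so precision came from the replicates. Capture values were not repeated at the level of reads, and only their counting error could be estimated.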

Additional observations from a re-analysis of the deposited data

Results flagged for a closer look

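The change after Cre on the odds scale differed between the lines, by the interaction term of the quasi-binomial model with limma moderation, at 2 raised intermediate CpGs. At the LMR24 member on chromosome 3 the log2 odds ratio of the TTKO change over the wild-type change was 1.72, with adjusted p = 0.0449 and a range of 0.0214 to 0.120 over the alternatives, of which 3 of 15 kept the call. At the REST75 member on chromosome 5 it was 1.94, with adjusted p = 0.0449 and a range of 0.0274 to 0.120, and 4 of 15 alternatives kept the call.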

How the results depend on the processing

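The counts of members called on amplicons held: 22 for TTKO against wild type at day 0, 18 for TTKO Cre against mock and 17 for wild-type Cre against mock at day 29 were 22 to 22, 18 to 22 and 15 to 21 when each replicate was left out. The interaction count of 2 did not hold. It was 0 with limma on log2 odds and 0 to 4 over the replicates left out, at 0 in 9 of 12. It was 4 without wild-type Cre replicate 2, 1 without wild-type mock replicate 1, and 2 without TTKO mock replicate 3. With the replicate number as a block it was 0, and the block changed none of the counts of 22, 18 and 17 members. It was run for no other comparison. The interactions of 1.72 and 1.94 were 1.73 and 1.98 with the block.

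A rise of at least 40 points left 153630 members. The share of members with another within 200 bases, 83.9%, was 74.9% within 100, 89.2% within 500 and 91.0% within 1000 bases, and 82.7% with at least 100 reads. The median distance to the nearest CpG, 17 bases, was 18 for measured CpGs and 18 with at least 100 reads. The mean day 29 level of 37.1% was 37.0% with at least 100 reads, 36.9% weighted by reads, 35.4% with 1 mean per cluster, 33.3% with a rise of at least 20 points and 40.5% with at least 40. The share left, 54.0%, was 53.9% with at least 100 reads, 51.7% of day 0 and 52.1% as the median CpG. The share of members with precise fits, 89.3%, was 57.8% with the beta-binomial likelihood, 31.3% with ranges under 1 and 96.9% with at least 100 reads, and the median log2 demethylation rate of -4.91 was -4.78, -4.78 and -5.05. No direction was reversed, and of the results for single members 115 kept their call and 23 interaction results lost it. The causes were not tested. Depth limits single capture CpGs, and joined columns hide the spread between replicates.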
